A study of Mus musculus with 48 samples.

Results

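Bone morphogenetic proteins (BMPs) are secreted ligands of the TGF-beta superfamily that bind as dimers to a complex of type I and type II receptor kinases. The type I kinase then phosphorylates SMAD1, SMAD5 and SMAD9, which enter the nucleus with SMAD4 and act on genes such as Id1 and Smad6, while secreted antagonists such as Noggin and Gremlin 1 bind the ligands and keep them from the receptors. In the growing limb the pathway is needed for cartilage formation, growth plate maturation and the formation of joints. The genes described here are 10 members of the pathway, chosen by symbol and matched to the Ensembl identifiers of the RNA count table, out of 55487 genes listed. They are 5 ligands (Bmp2, Bmp4, Bmp6, Bmp7 and Gdf5), 3 receptors (Bmpr1a, Bmpr1b and Bmpr2) and 2 antagonists (Nog and Grem1). All 10 were found and all 10 passed the filter on low counts.

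Limbs of C57BL/6 mice on postnatal day 3 were the source of the cells, which the labels give as sorted skeletal stem cells (SSC), a pre-stage of the progenitors of bone, cartilage and stroma (pBCSP) and these progenitors themselves (BCSP). KO cells came from Ptip f/f;Col2a1-cre mice, in which floxed Ptip alleles are removed in cells that have switched on a Cre driven by the promoter of Col2a1, which encodes type II collagen of cartilage, so cells with no such history keep the alleles. WT cells came from Ptip f/f mice, which carry the same floxed alleles and no Cre. PTIP, encoded by the gene now named Paxip1, is an adaptor protein of H3K4 methyltransferase complexes, and the comparison asks how its loss bears on expression and histone marks in these populations. There were 6 groups of 2 RNA libraries each. Whether the replicates of a group come from separate animals is not stated in the labels, and p-values measure the spread between these libraries, which may be technical. Each group also had 1 H3K4me3 (promoters), 1 H3K4me1 (enhancers) and 2 H3K27ac (active promoters and enhancers) peak lists from chromatin immunoprecipitation of MNase-digested chromatin.

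The RNA libraries held 15495915 to 22670899 counts, and a count of 0 allows up to 0.134 to 0.208 CPM (counts scaled to a library of 1e6), for counting error alone. Paxip1 had 0.347 and 0 CPM in SSC KO, 0.568 and 0.0904 CPM in pBCSP KO and 3.48 and 0.791 CPM in BCSP KO (replicate 1, then 2). It had 7.25 to 14.6 CPM in the WT libraries, and all of its KO values were below its WT values. KO replicate 1 had the higher Paxip1 value in each population, and the part of this in differences between KO replicates was not tested. Of the surface genes behind the sort, Cd200 was highest in SSC (198 to 303 CPM), then in BCSP (74.9 to 132 CPM) and lowest in pBCSP (13.2 to 27.7 CPM), and Eng (CD105) had 72.8 to 168 CPM in BCSP and 25.1 to 34.3 CPM in the other libraries. Chondrocyte genes were abundant throughout, with Col2a1 at 21100 to 58100 CPM. One library stands apart: only 13987 genes were detected in SSC KO replicate 2, against 20965 to 23831 in the other 11. In that library all 6 listed endothelial genes were at 0, and the 5 Schwann cell genes summed to 0.554 CPM with Sox10 and Foxd3 at 0, against 501 CPM in SSC KO replicate 1 and 1320 and 1910 CPM in SSC WT. The KO replicates also lay further from each other than the WT replicates, with median absolute log2 differences between replicates of 1.30, 0.67 and 0.63 in SSC, pBCSP and BCSP KO, against 0.44, 0.40 and 0.35 in the matching WT groups. KO values of the members are therefore given library by library, replicate 1 before replicate 2, and their average effects also without SSC KO replicate 2. For most other pathway genes only the average over all libraries is given, which may rest largely on 1 KO replicate. Libraries of the same number also deviated together across populations within a genotype, with correlations over genes of 0.29 to 0.49 between KO groups and 0.28 to 0.33 between WT groups, so the 6 libraries of a genotype are not 6 independent samples and the p-values of average effects may be too small. With counts summed over populations, which leaves 2 samples per genotype, edgeR called 0% of genes and no member. Levels are not compared between genes, since no transcript lengths were at hand. In bulk samples such as these, fewer cells of a type and less RNA per cell cannot be told apart.

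Promoter sequences are shown for 4 members on which the results turn, each giving the 250 bases before a RefSeq start site (GRCm38.p6), 5′ to 3′ on the gene's strand. They are Bmp4, a ligand with a wide H3K4me3 peak; Bmp6, the ligand whose KO libraries lay below its WT libraries in every population; Grem1, the antagonist with the widest spread between KO libraries; and Bmpr1a, the steadiest member in RNA and the one with H3K27ac peaks in the most lists. Capitals mark GGCGCC, a GC-rich element that BMP SMADs are known to bind, and GGGCGG, the GC box, each searched on both strands, where the GC box reads CCGCCC on the opposite strand.
Bmp4, chr14:46390670-46390919, minus strand: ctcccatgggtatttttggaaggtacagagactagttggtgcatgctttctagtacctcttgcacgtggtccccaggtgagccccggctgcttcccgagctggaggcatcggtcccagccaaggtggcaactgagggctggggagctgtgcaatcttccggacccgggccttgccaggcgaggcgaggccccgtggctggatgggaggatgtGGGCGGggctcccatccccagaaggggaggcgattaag
Bmp6, chr13:38345466-38345715, plus strand: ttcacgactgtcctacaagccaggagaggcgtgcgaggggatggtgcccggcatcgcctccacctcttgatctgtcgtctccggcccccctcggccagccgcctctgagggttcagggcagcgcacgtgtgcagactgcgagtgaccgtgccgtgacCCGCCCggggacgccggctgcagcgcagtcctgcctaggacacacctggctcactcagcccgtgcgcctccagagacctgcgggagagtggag
Grem1, chr2:113758649-113758898, minus strand: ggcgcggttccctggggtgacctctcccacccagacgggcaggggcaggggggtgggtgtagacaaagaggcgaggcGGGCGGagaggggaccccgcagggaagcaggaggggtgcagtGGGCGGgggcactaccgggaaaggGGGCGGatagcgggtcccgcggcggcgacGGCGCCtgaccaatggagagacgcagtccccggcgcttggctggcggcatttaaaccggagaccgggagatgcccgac
Bmpr1a, chr14:34502547-34502796, minus strand: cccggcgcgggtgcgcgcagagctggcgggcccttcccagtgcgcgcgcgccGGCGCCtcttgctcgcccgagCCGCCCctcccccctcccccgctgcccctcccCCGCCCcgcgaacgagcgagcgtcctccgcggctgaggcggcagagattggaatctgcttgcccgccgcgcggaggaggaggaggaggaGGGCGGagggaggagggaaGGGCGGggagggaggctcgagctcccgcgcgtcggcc

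The table of RefSeq promoters held an entry for 6 of the 10 members: Bmp4, Bmp6, Bmpr1a, Bmpr1b, Bmpr2 and Grem1. The 3 listed start sites of Bmpr1b lie inside the gene, the outermost 187 kb from its 5′ end, and the sequence at that end was not among those compared. Their windows hold 1, 5 and 5 CpG in 250 bases, whereas the median of the 32851 promoters in the table is 6. Bmp4 has 11, Bmp6 and Bmpr2 have 22 each, Grem1 has 24 and Bmpr1a has 36, more than 97.4% of promoters. The listed start site of Bmpr1a lies 0.79 kb inside the gene's annotated 5′ end, so its window too lies within the gene. The GGCGCC element occurs once each before Bmpr1a, Bmpr2 and Grem1 and not in the windows of Bmp4, Bmp6 and Bmpr1b, and 9.59% of all promoters hold it. The GC box occurs 4 times before Bmpr1a, 3 times before Grem1 and once each before Bmp4, Bmp6 and Bmpr2, and 32.7% of all promoters hold it. None of the matches of GGCGCC and GGGCGG overlap in the sequences shown, and a match in such a window is a description of its letters, not a measured binding site.

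Averaged over the 3 populations, none of the 10 members passed the threshold of an adjusted p of 0.05 between KO and WT in edgeR's quasi-likelihood test, in which 1.17% of the 17494 genes tested were called. At an unadjusted p under 0.05 the test picked 3 of the 10, Bmp4 and Bmp6 with lower and Grem1 with higher KO levels, where 19.6% of all genes were picked, 8.57% of them lower and 11% higher in KO. DESeq2 called 1 member, Bmp6, among the 9.68% of all genes that it called. A log2 difference below 0 was seen in 7 members and above 0 in 3, with a median of -0.41, while 55.3% of all genes tested were below 0 with a median of -0.09. Among these 10 members all 5 ligands were below 0 and the antagonists Nog and Grem1 above it. Nog at 0.16 ± 0.42 lay within its SE of 0, and Bmp2, Nog and Grem1 changed sides with the KO replicate 1 libraries alone. Genes outside the members did not divide so: 2 of 4 other tested ligands were above 0, and 8 of 15 other antagonists and modulators below it. Without SSC KO replicate 2 the average differences of members not given so below were -0.43 for Bmp2, -0.34 for Bmp7, -0.32 for Gdf5, 0.21 for Bmpr1a, -0.43 for Bmpr1b and 0.12 for Nog. Values per library are plotted in the panels of CPM by population.

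**Figure D1:**
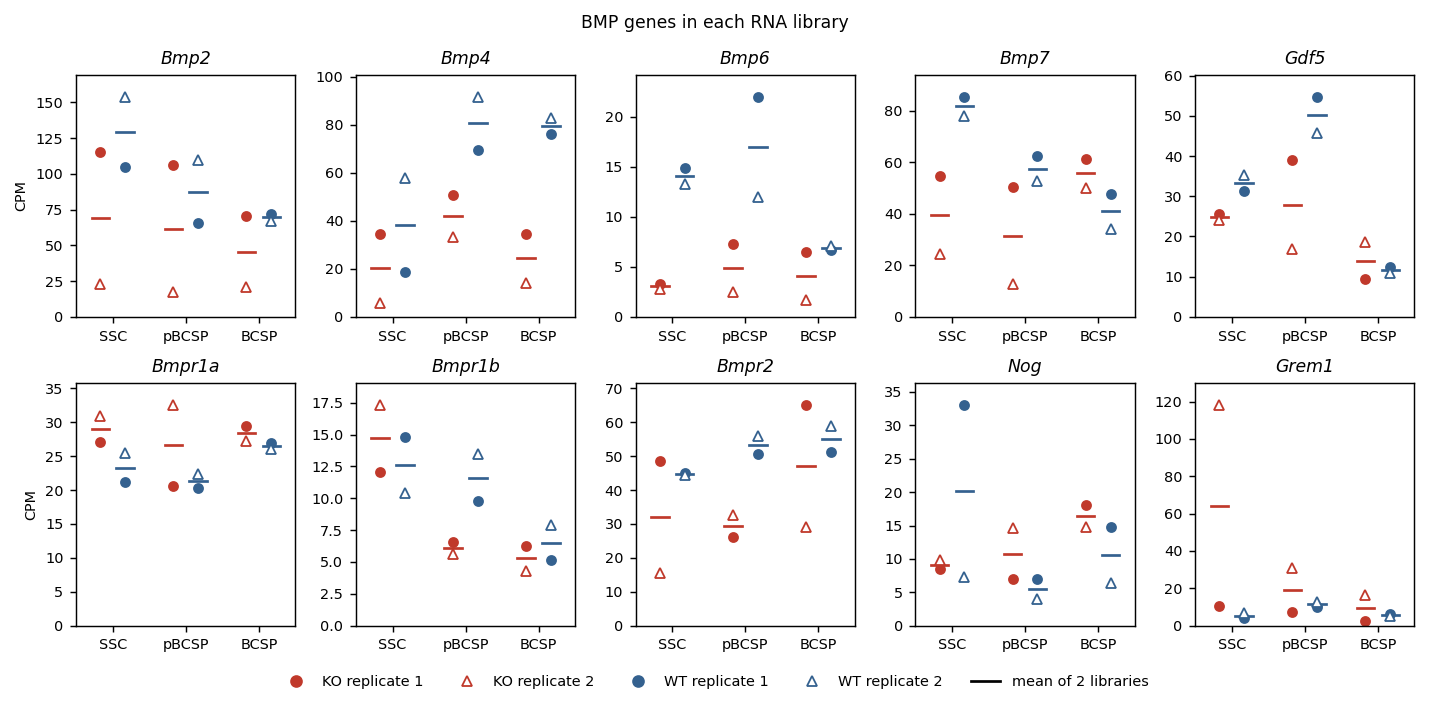
CPM of the 10 BMP genes in each RNA library, by population on the horizontal axis, with KO left of WT, circles for replicate 1, open triangles for replicate 2 and a bar for the mean of the 2 libraries. The vertical axes start at 0 and differ between panels. KO replicate 2 has the lowest Bmp2 and the highest Grem1 value of each population, with Grem1 at 118 CPM in SSC.

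Bmp6, a ligand made by hypertrophic chondrocytes among other cells and known outside the skeleton as a regulator of hepcidin, was the only member whose KO libraries were all below its WT libraries in all 3 populations, a pattern that 6.53% of the genes tested showed. In SSC it had 3.33 and 2.77 CPM in KO and 14.9 and 13.3 CPM in WT. pBCSP libraries had 7.25 and 2.49 CPM in KO and 22.0 and 12 CPM in WT. The BCSP libraries differed least, with 6.48 and 1.70 CPM in KO and 6.71 and 7.08 CPM in WT, so that replicate 1 of BCSP KO stood just under the WT pair. The average log2 difference was -1.59 ± 0.42 (SE, 6 libraries per genotype), a fold of 0.333 with an adjusted p of 0.0995 in edgeR. The adjusted p was 0.00464 in DESeq2 and ran from 0.000205 to 0.591 over the 21 alternatives tried. Without SSC KO replicate 2 it was -1.55 ± 0.44 (adjusted p = 0.104). By population edgeR gave SSC a log2 difference of -2.21 ± 0.75, pBCSP one of -1.81 ± 0.74 and BCSP one of -0.75 ± 0.72, with adjusted p of 0.524, 0.78 and 0.926. The 5 listed hypertrophic chondrocyte genes were Col10a1, Ihh, Mmp13, Ibsp and Pth1r. Their sum was 581 and 1130 CPM in SSC KO and 1870 and 1010 CPM in SSC WT. In pBCSP the sum was 42.7 and 46.6 CPM in KO and 107 and 27.7 CPM in WT. In BCSP the sum was 1750 and 291 CPM in KO and 1320 and 806 CPM in WT. These sums overlapped between genotypes in each population, and Mmp13 alone had 592 CPM in SSC KO replicate 2. By gene, 1 of the 5 was below WT without overlap in each population, where 24% to 26.4% of all genes were. In pBCSP and BCSP 1 was also above WT without overlap, as 21.2% and 24.2% of all genes were. The part of hypertrophic chondrocytes in the Bmp6 values was not tested. Reads where the last 49 bases of Bmp6 overlap Txndc5, and in a 1554-base overlap with the lncRNA 4930579J19Rik, cannot be assigned with certainty where strand was not used.

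Bmp2 and Bmp4 are close relatives that signal through the same receptors and act in chondrocyte and osteoblast differentiation. Bmp2 split by KO replicate in all 3 populations. In SSC it had 115 and 23.3 CPM in KO and 105 and 154 CPM in WT, in pBCSP 106 and 17.3 CPM in KO and 65.3 and 110 CPM in WT, and in BCSP 70.4 and 20.9 CPM in KO and 72.0 and 67.0 CPM in WT. Replicate 1 of KO was 0.889, 1.21 and 1.01 times the WT mean in SSC, pBCSP and BCSP, and replicate 2 was 0.18, 0.197 and 0.30 times that mean. KO replicate 2 under 0.5 times the WT mean with KO replicate 1 at 0.5 times or more, in all 3 populations, was seen in 5.72% of the genes tested, and the reverse in 0.0343%. The average log2 difference of Bmp2 was -0.67 ± 0.53 (adjusted p = 0.506, edgeR). It was 0.04 with the KO replicate 1 libraries alone and -2.20 with the KO replicate 2 libraries alone, each against the 6 WT libraries.

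The KO values of Bmp4 lay below its WT values in pBCSP and BCSP. In pBCSP it had 50.8 and 33.1 CPM in KO and 69.5 and 91.8 CPM in WT, and in BCSP 34.7 and 14.1 CPM in KO and 76.2 and 82.9 CPM in WT. The genotypes did not overlap in either population, a pattern that 24% and 26.4% of all genes showed with KO the lower. In SSC they overlapped, with 34.6 and 5.77 CPM in KO and 18.7 and 58.0 CPM in WT. The average log2 difference was -1.19 ± 0.46 (adjusted p = 0.202, edgeR) and -0.93 ± 0.35 (adjusted p = 0.186) without SSC KO replicate 2. By population it was -0.93 ± 0.79 in SSC, -0.94 ± 0.79 in pBCSP and -1.70 ± 0.80 in BCSP. The 7 listed osteoblast genes did not all lie on the same side in pBCSP and BCSP. In SSC 4 of them were below and 0 above WT without overlap, where 25.8% and 13.7% of all genes were. In pBCSP 5 were below and 1 above (24% and 21.2% of all genes), and in BCSP 1 was below and 2 were above (26.4% and 24.2%). The 1 below in BCSP was Col1a1, the main collagen of bone, with 18100 and 8480 CPM in BCSP KO and 33400 and 39500 CPM in BCSP WT. The 2 above were the osteoblast transcription factors Runx2, with 61.6 and 58.4 CPM in BCSP KO and 25.6 and 15.5 CPM in BCSP WT, and Sp7, with 45.6 and 38.3 CPM in BCSP KO and 28.7 and 7.75 CPM in BCSP WT. Summed over the 7 genes the level was 6940 to 19900 CPM in KO and 14000 to 40800 CPM in WT. Bglap had 0 CPM in both pBCSP KO libraries and 0.223 and 0.108 CPM in pBCSP WT, near the level that a count of 0 allows. The part of osteoblasts in the Bmp4 values was not tested. Bmp4 overlaps the lncRNA Gm15222 over 1805 bases and Gm15217 over 84 bases, which limits its counts in the same way as those of Bmp6.

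Bmp7 takes part in kidney, eye and skeletal development and is expressed in the perichondrium. Its KO libraries were below the WT libraries in SSC, as in 25.8% of all genes there, at 54.8 and 24.6 CPM in KO and 85.5 and 78.0 CPM in WT. They were also below in pBCSP, as in 24% of all genes, at 50.4 and 12.7 CPM in KO and 62.3 and 52.8 CPM in WT. In BCSP the order turned, at 61.2 and 50.2 CPM in KO and 47.6 and 34.3 CPM in WT, and 24.2% of all genes lay above WT there without overlap. The KO effect was -1.04 ± 0.58 log2 in SSC, -0.87 ± 0.58 in pBCSP and 0.44 ± 0.58 in BCSP, and -0.49 ± 0.33 on average (adjusted p = 0.447, edgeR). The F test of edgeR across populations, which asks whether the KO effect differs between them, gave an unadjusted p of 0.197 for Bmp7 and an adjusted p of 1. Bmp7 shares 16561 bases with the lncRNA Gm40010.

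Gdf5, a ligand of the prospective joint that signals mainly through BMPR1B, had its lowest WT levels in BCSP. It had 25.6 and 24.2 CPM in SSC KO and 31.3 and 35.2 CPM in SSC WT. In pBCSP it had 39.0 and 16.8 CPM in KO and 54.8 and 45.8 CPM in WT. BCSP had 9.49 and 18.6 CPM in KO and 12.3 and 10.9 CPM in WT. The average KO effect was -0.33 ± 0.26 log2 (adjusted p = 0.509, edgeR). Among WT populations Gdf5 was 0.231 times as high in BCSP as in pBCSP (log2 difference -2.12 ± 0.47, unadjusted p = 0.0013, adjusted p = 1 in edgeR, 0.0248 in DESeq2 and 0.0248 to 1 over the alternatives) and 0.348 times as high in BCSP as in SSC (-1.52 ± 0.46, unadjusted p = 0.0086, adjusted p = 1). Between WT pBCSP and WT SSC the log2 difference was 0.60 ± 0.45. Prg4, which encodes lubricin of the joint surface, had 611 and 457 CPM in WT BCSP, 1940 and 2190 CPM in WT pBCSP and 1450 and 1740 CPM in WT SSC. Tnmd, a tendon gene of the same list, was instead highest in BCSP among the WT populations. It had 833 and 623 CPM in WT BCSP, 237 and 190 CPM in WT pBCSP and 82.5 and 61.5 CPM in WT SSC. The 5 listed tendon or joint genes together, all of them detected in every library, summed to 1690 and 1260 CPM in WT BCSP, 2440 and 2610 CPM in WT pBCSP and 1690 and 2000 CPM in WT SSC. The part of joint cells in the Gdf5 levels was not tested.

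**Figure D2:**
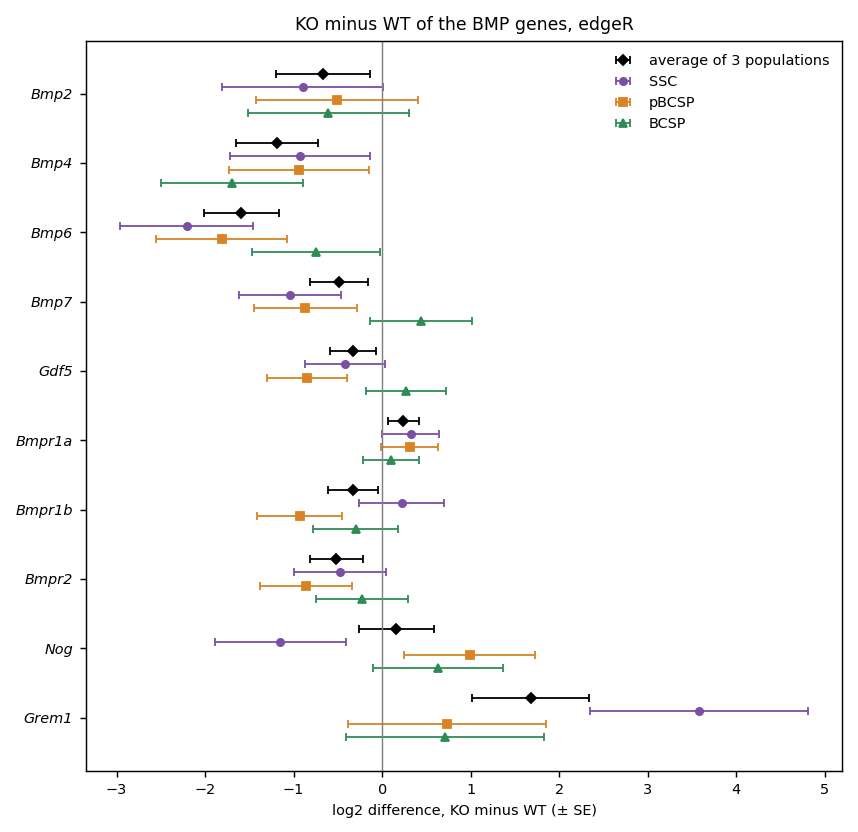
log2 difference of each member between KO and WT from edgeR, with SE bars, on average over the 3 populations (diamonds) and in SSC (circles), pBCSP (squares) and BCSP (triangles). All 5 average values of the ligands lie left of 0, from -0.33 for Gdf5 to -1.59 for Bmp6 (that of Bmp2 was 0.04 with KO replicate 1 alone), and the SE bars of single populations are wider than those of the average.

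Of the receptors, Bmpr1a, a type I receptor that cartilage needs together with Bmpr1b, was the steadiest member across the libraries, with a root mean square spread of 0.22 log2 around its own mean. It had 27.1 and 30.9 CPM in SSC KO and 21.2 and 25.4 CPM in SSC WT. The pBCSP values were 20.6 and 32.5 CPM in KO and 20.3 and 22.4 CPM in WT, and in BCSP 29.5 and 27.3 CPM in KO and 26.9 and 26.1 CPM in WT. KO lay above WT without overlap in SSC and BCSP, where 13.7% and 24.2% of all genes did so. Its average log2 difference was 0.24 ± 0.18 (adjusted p = 0.495, edgeR).

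Bmpr1b, the type I receptor preferred by GDF5, had its 2 highest values in SSC libraries, 1 of each genotype. It had 12.1 and 17.3 CPM in SSC KO and 14.8 and 10.4 CPM in SSC WT, and the genotypes overlapped. For pBCSP the values were 6.56 and 5.65 CPM in KO and 9.79 and 13.5 CPM in WT, without overlap as in 24% of all genes, and in BCSP 6.27 and 4.32 CPM in KO and 5.18 and 7.87 CPM in WT. The average log2 difference was -0.33 ± 0.28 (adjusted p = 0.531, edgeR).

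Bmpr2, the type II receptor that binds BMPs and few other ligands, was even among WT libraries, from 44.4 to 58.9 CPM, and spread from 15.6 to 65.0 CPM among KO libraries. It had 48.6 and 15.6 CPM in SSC KO and 44.9 and 44.4 CPM in SSC WT, 26.1 and 32.6 CPM in pBCSP KO and 50.6 and 56.0 CPM in pBCSP WT, and 65.0 and 29.0 CPM in BCSP KO and 51.1 and 58.9 CPM in BCSP WT. KO was below WT without overlap in pBCSP, as in 24% of all genes there. The average log2 difference was -0.52 ± 0.30 (adjusted p = 0.365, edgeR) and -0.32 ± 0.23 without SSC KO replicate 2.

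Noggin, encoded by Nog, binds BMP2, BMP4 and GDF5 with high affinity and is needed for joint formation. In SSC, Nog had 8.46 and 9.76 CPM in KO and 33.0 and 7.34 CPM in WT, so that a single WT library carried the WT level. In pBCSP it had 6.94 and 14.6 CPM in KO and 6.94 and 3.94 CPM in WT, and in BCSP 18.0 and 14.8 CPM in KO and 14.8 and 6.35 CPM in WT. The log2 differences were -1.15 ± 0.74, 0.99 ± 0.74 and 0.63 ± 0.73 in SSC, pBCSP and BCSP, and 0.16 ± 0.42 on average (adjusted p = 0.865, edgeR). In edgeR's F test of a difference between populations its unadjusted p was 0.146 and its adjusted p was 1. Without SSC WT replicate 1 the SSC difference was 0.30, above 0.

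Gremlin 1, encoded by Grem1, binds BMP2, BMP4 and BMP7 and is a limb bud antagonist that also marks a stem cell type of bone marrow stroma. Grem1 had the widest range of the 10 members among KO libraries, from 2.27 to 118 CPM, while its WT libraries ranged from 4.03 to 12.9 CPM. In SSC it had 10.7 and 118 CPM in KO and 4.03 and 6.69 CPM in WT, without overlap (13.7% of all genes). In pBCSP it had 7.25 and 30.7 CPM in KO and 10 and 12.9 CPM in WT, and in BCSP 2.27 and 16.2 CPM in KO and 6.16 and 5.06 CPM in WT. In pBCSP and BCSP the KO replicates thus stood on both sides of the WT pair, replicate 2 above it and replicate 1 below it. Relative to the WT mean, KO replicate 2 had 22 times the level in SSC, 2.68 times in pBCSP and 2.88 times in BCSP, and KO replicate 1 had 2.00, 0.633 and 0.404 times that level. The average log2 difference of 1.68 ± 0.66 (adjusted p = 0.21, edgeR) was 0.81 ± 0.52 without SSC KO replicate 2 and -0.32 with the KO replicate 1 libraries alone. SSC KO replicate 2, the library with the highest Grem1 value, is the one with reads in 13987 genes.

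**Figure D3:**
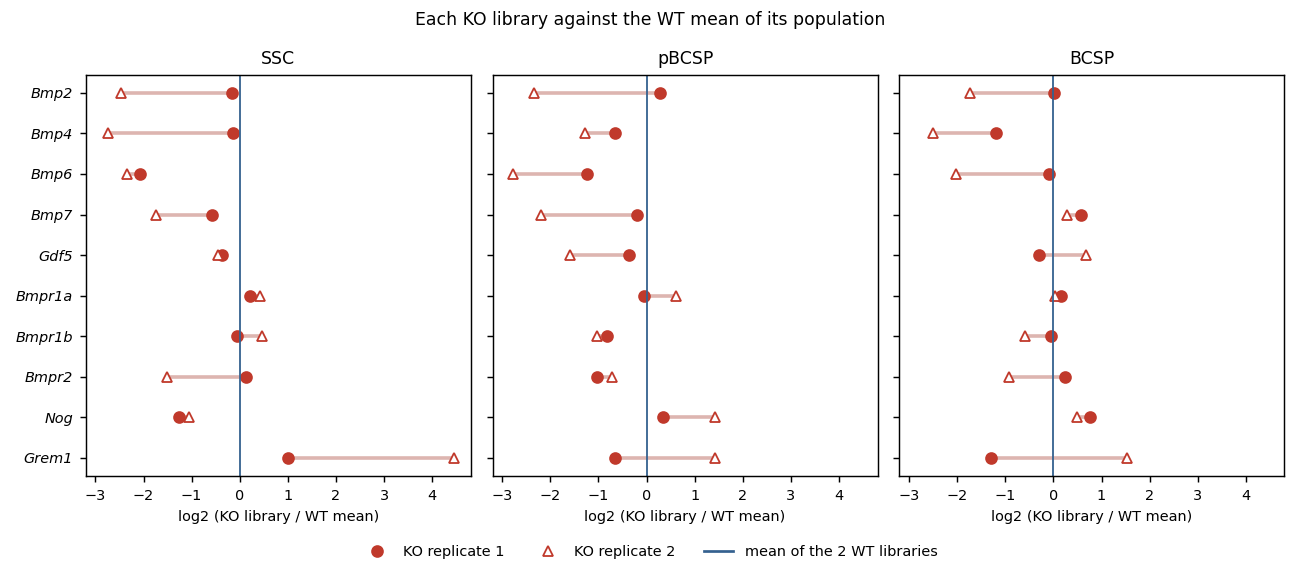
log2 ratio of each KO library to the mean of the 2 WT libraries of its population, for replicate 1 (filled circles) and replicate 2 (open triangles), with the WT mean at 0. For Bmp2 replicate 1 lies near 0 and replicate 2 far left of it in all 3 panels, and for Grem1 replicate 2 lies right of 0 in all 3, at 22 times the WT mean in SSC.

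By population, edgeR called 0 of the 10 members in SSC, pBCSP and BCSP, and 0% of the 17494 genes in each. The targeted gene Paxip1 was itself not called there, at log2 differences of -6.22, -5.09 and -2.25 (adjusted p = 0.524, 0.74 and 0.832, edgeR). A lack of calls by population is therefore not evidence of no effect. At an unadjusted p under 0.05 there were 2 members in SSC (Bmp6 and Grem1), 1 in pBCSP (Bmp6) and 0 in BCSP, where 9.39%, 6.27% and 6.26% of all genes passed. DESeq2 called 0 members in each, among 174, 99 and 123 genes it called (1.1%, 0.613% and 0.894%). The KO effect differed between populations for 0 members at an adjusted or an unadjusted p under 0.05, where 0% and 1.37% of all genes passed in edgeR and DESeq2 called 3 genes, none of them a member. Among the WT populations edgeR called 0 members and 0% of genes in each of 3 comparisons. Nog (pBCSP against SSC) and Gdf5 (BCSP against pBCSP and against SSC) had an unadjusted p under 0.05 there, where 1.89%, 2.62% and 3.48% of all genes did, and DESeq2 called Gdf5 between BCSP and pBCSP, where it called 0.188% of genes.

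Other genes of the pathway were looked up in 5 lists, and edgeR called 0 of the 44 that were tested on average over the populations. DESeq2 called 4 of the 44 (Bmp3, Tgfbr3, Fst and Bambi), where it called 9.68% of all genes, so the count was near the background. Among other ligands, 4 of 8 listed genes were tested. Bmp3, which counters BMP signalling in bone, had 128 and 307 CPM in SSC KO and 42.5 and 39.9 CPM in SSC WT, 38.9 and 49.2 CPM in pBCSP KO and 27.9 and 23.9 CPM in pBCSP WT, and 39.4 and 24.2 CPM in BCSP KO and 25.1 and 20.7 CPM in BCSP WT. All KO values were above the WT values in SSC and pBCSP, as in 13.7% and 21.2% of all genes, and its average log2 difference of 1.21 ± 0.24 had an adjusted p of 0.0511 in edgeR and 0.00108 in DESeq2, with 0.000157 to 0.591 over the alternatives. Bmp5, Bmp8a and Gdf6 had average differences of 0.47 ± 0.19, -0.96 ± 0.87 and -1.13 ± 1.20 (adjusted p = 0.219, 0.569 and 0.63). Bmp5 lay above WT without overlap in all 3 populations, as 5.32% of all genes did.

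Of 7 other receptors and co-receptors tested, 6 had average differences below 0, with a median of -0.88 over the list against -0.09 over all genes. Among the 4 with the highest counts, the differences were -0.61 ± 0.22 for Rgmb, a co-receptor, -1.05 ± 0.29 for Tgfbr3 (betaglycan), -0.63 ± 0.28 for Acvr1, a type I receptor, and -1.10 ± 0.46 for Acvrl1, the type I receptor of BMP9 in endothelium (adjusted p = 0.174, 0.106, 0.248 and 0.231 in edgeR). Tgfbr3 was below WT without overlap in all 3 populations, as 6.53% of all genes were, with 21.5 and 7.32 CPM in SSC KO and 23.6 and 42.8 CPM in SSC WT, 16.4 and 21.7 CPM in pBCSP KO and 30.3 and 36.7 CPM in pBCSP WT, and 20.7 and 19.8 CPM in BCSP KO and 39.6 and 49.9 CPM in BCSP WT. Acvrl1 was highest in WT BCSP, at 35.2 and 39.9 CPM, and the 6 endothelial genes summed to 0 to 24.5 CPM in KO and 7.03 to 46.2 CPM in WT, whose part in the Acvrl1 values was not tested.

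The list of other antagonists and extracellular modulators had 15 of 17 genes tested, 7 of them above and 8 below 0, with a median of -0.03. The 4 most abundant were Fstl1, a follistatin-like protein (-0.64 ± 0.20, adjusted p = 0.136), Twsg1, a chordin partner (-0.15 ± 0.30, adjusted p = 0.815), Nbl1, a relative of Grem1 (-1.64 ± 0.64, adjusted p = 0.203), and Bmp1, the protease that cleaves chordin (-0.14 ± 0.20, adjusted p = 0.723, all edgeR). Nbl1 split by KO replicate like Bmp2: it had 190 and 33.3 CPM in SSC KO and 236 and 245 CPM in SSC WT, 193 and 24.7 CPM in pBCSP KO and 289 and 398 CPM in pBCSP WT, and 180 and 24 CPM in BCSP KO and 386 and 521 CPM in BCSP WT. Replicate 2 was the lowest KO value each time, but here replicate 1 also lay below both WT libraries. Fst, which encodes follistatin and was picked here because DESeq2 called it, had the lowest average difference of the list, -2.26 ± 0.74 (adjusted p = 0.152 in edgeR, 0.0175 in DESeq2 and 1.53e-10 to 0.591 over the alternatives).

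Of the 6 SMADs and SMAD ubiquitin ligases, 5 lay below 0, with a median of -0.49. The 4 with the highest counts were Smad4, the partner of all receptor-activated SMADs (-0.36 ± 0.31), Smad5 (-0.33 ± 0.25) and Smad1 (-0.62 ± 0.34), which BMP receptors phosphorylate, and Smurf2, a ubiquitin ligase (-0.62 ± 0.68), with adjusted p from 0.342 to 0.646 in edgeR. Of the 12 response genes 9 lay below 0, with a median of -0.38. The Id genes encode inhibitors of helix-loop-helix transcription factors and are direct targets of BMP SMADs. Id1 had 467 and 90.3 CPM in SSC KO and 444 and 335 CPM in SSC WT, 504 and 81.4 CPM in pBCSP KO and 341 and 282 CPM in pBCSP WT, and 288 and 132 CPM in BCSP KO and 182 and 148 CPM in BCSP WT. KO replicate 1 was above and KO replicate 2 below the WT pair in each population, and the average difference was -0.08 ± 0.49 (adjusted p = 0.95), with 0.59 from the KO replicate 1 libraries alone. Id3 and Id2 had differences of -0.56 ± 0.28 and -0.46 ± 0.16 (adjusted p = 0.299 and 0.167). Bambi, a pseudoreceptor that damps the pathway and is itself induced by it, was below WT without overlap in all 3 populations, like 6.53% of all genes, at 38.9 to 113 CPM in KO and 125 to 191 CPM in WT, with an average difference of -1.07 ± 0.27 (adjusted p = 0.0907 in edgeR, 0.0103 in DESeq2 and 0.000193 to 0.591 over the alternatives).

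**Figure D4:**
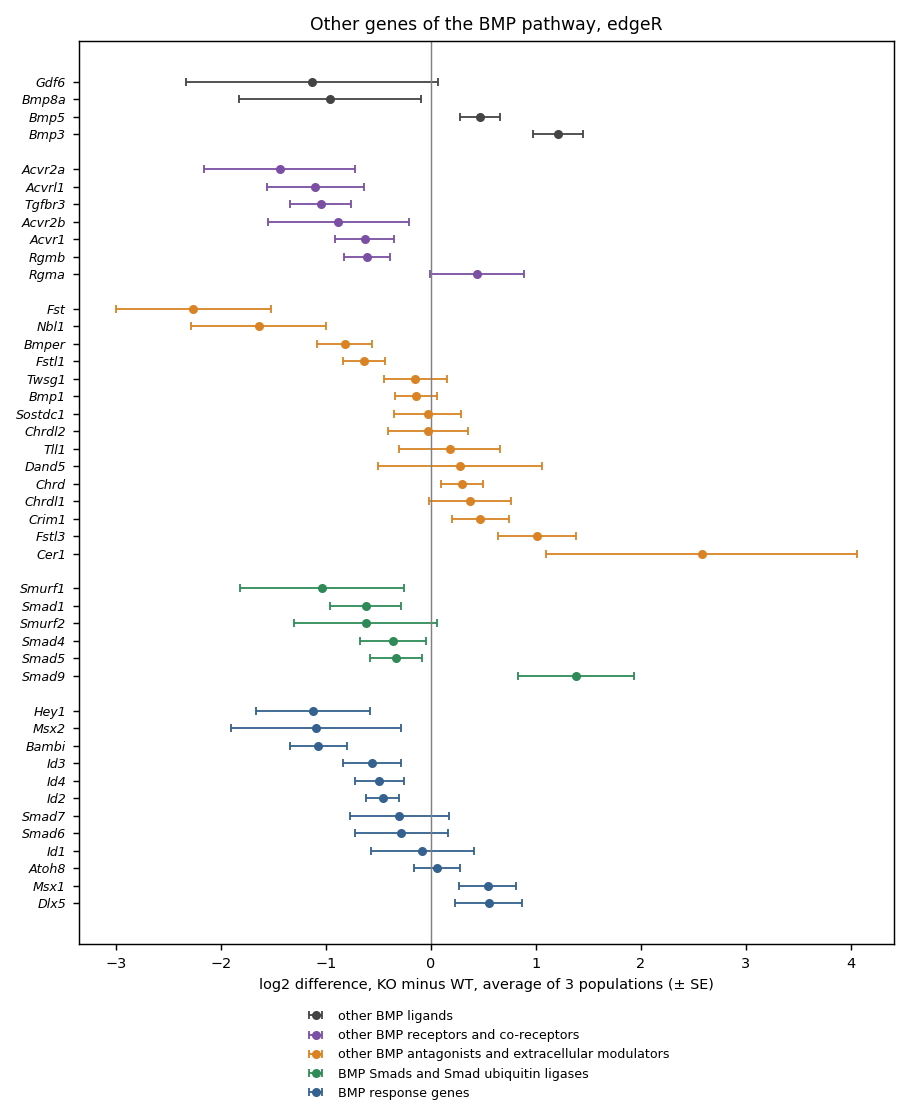
Average log2 difference between KO and WT over the 3 populations from edgeR, with SE bars, for the 44 tested genes of 5 further lists of the pathway, sorted within each list. Receptors, SMADs and response genes lie mostly left of 0, Bmp3 lies right of it at 1.21, and none passed an adjusted p of 0.05.

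For each member the 3 genes whose centred log2 CPM ran closest over the 12 libraries were looked up among genes of like level. Bmp2 ran closest to Ezr, Ctdp1 and Chic2, with root mean square differences of 0.23, 0.27 and 0.31 log2, against a spread of Bmp2 around its own mean of 1.01. Bmp4 was nearest to Plxdc2, Ano6 and Igf2bp1 (0.38 to 0.45, own spread 1.14), Bmp7 to Lats1, Lrrc8c and Timm8a1 (0.30 to 0.38, own spread 0.72) and Bmpr2 to Opa1, Larp4 and Ammecr1 (0.23 to 0.24, own spread 0.57). Bmp6 (Ppp1cc, Tle1 and Tnfrsf23, 0.49 to 0.51), Gdf5 (Sertad3, Il17d and Chst3, 0.47 to 0.49), Nog (Flvcr2, Cfap300 and Dhx58os, 0.44 to 0.48) and Grem1 (Zfp30, 4933400C23Rik and Gm43050, 0.53 to 0.55) had no gene closer than 0.44 log2. Bmpr1a (among them Apool and Vezt, 0.12 to 0.13) and Bmpr1b (Usp6nl, Gm4285 and Dusp7, 0.30 to 0.34) complete the set. All points come from the same 12 libraries and share their depth and any differences between KO replicates.

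H3K4me3, a mark of active promoters, was found at all members. For the 6 members with a listed start site a peak overlapped the 1 kb on either side of it in each of the 6 lists, where 64.8% to 67.3% of 17274 genes had one. Bmp2, Bmp7, Gdf5 and Nog had no listed start site, and either annotated end of the gene was used: all 4 had a peak in all 6 lists. The share of all genes with a peak at either end was not computed. It lay at the lower-coordinate end of Bmp2 (chr2:133552159-133562896, GRCm38) and, at its highest enrichment, at the upper-coordinate end of Bmp7 (chr2:172868012-172940321), and it spanned both ends of Nog. At Gdf5 it covered the upper-coordinate end in all 6 lists and the lower-coordinate end only in SSC WT. The authors' fold enrichment of these peaks was 7 to 26.98 in KO lists and 7.25 to 25.92 in WT lists, highest for Bmpr2 in BCSP of both genotypes.

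Peak widths ran from 1185 bases at a listed start site of Bmpr1b to 8341 bases at Bmp2. At Bmp4 the peak was 6215 to 6368 bases wide in KO and 6020 to 6075 in WT, at Nog 5637 to 5854 in KO and 5619 to 5801 in WT, and at Bmpr2 5320 to 6389 in KO and 5327 to 5905 in WT. In its own list the Bmp4 peak was wider than that of 95.9% to 98.5% of the genes with a start-site peak, and that of Bmpr2 wider than 95.9% to 97.3%. At the listed start sites inside Bmpr1b the peak was 1287 to 1788 bases wide in KO and 1185 to 1645 in WT, narrower than the median gene in each of the 6 lists. At the 5′ end of that gene a second peak covered the end in all 6 lists, 2665 to 3318 bases wide in KO and 2688 to 2793 in WT, with an enrichment of 14.33 to 18.43 times in KO and 16.97 to 19.64 times in WT. The Bmpr1b locus, with the gene and 10 kb on either side, held 3 to 16 H3K4me3 peaks in KO lists and 5 to 13 in WT lists. Bmp6 had 3509 to 5337 bases in KO and 3786 to 4074 in WT, and Grem1 had 2183 to 2841 bases in KO and 2435 to 2785 in WT. In SSC KO the widest peaks were those of Bmp2 (8341 bases, against 6225 in SSC WT) and Bmp7 (7715 bases, against 3298). The SSC KO list had 42399 peaks and a median start-site width of 2433 bases, the most of the 6 lists, against 33510 peaks and 2114 bases in SSC WT, and with 1 list per group a difference in width between genotypes was not tested.

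**Figure D5:**
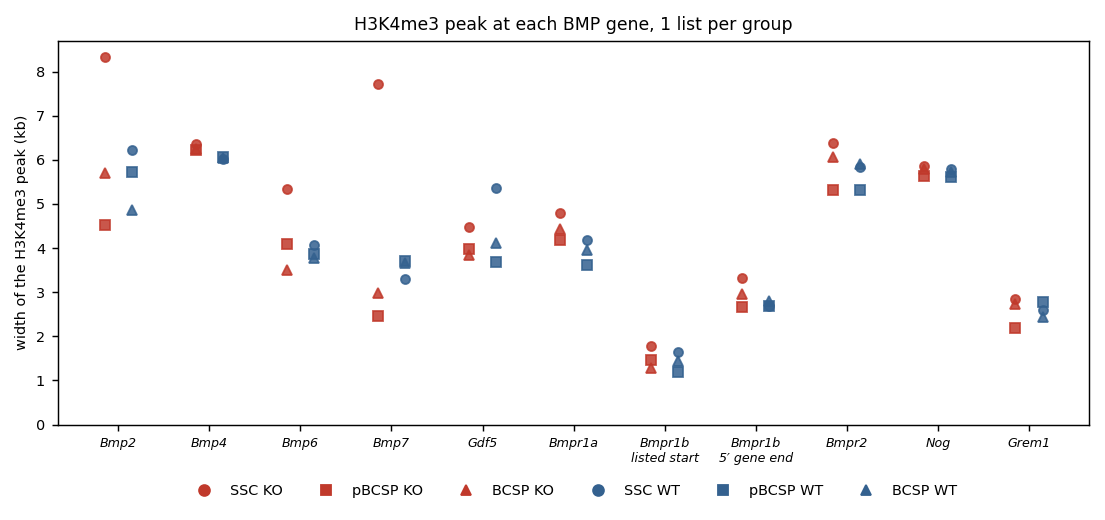
Width in kilobases of the H3K4me3 peak at the start site or gene end of each member, with Bmpr1b shown both at its listed start sites and at its 5′ gene end, 1 point per list, with KO left of WT and circles, squares and triangles for SSC, pBCSP and BCSP. Bmp4, Bmpr2 and Nog have wide peaks in all lists, and those of Bmpr1b span 1185 to 1788 bases at its listed start sites and 2665 to 3318 bases at its 5′ end, while Bmp2 and Bmp7 have their widest peak in SSC KO.

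H3K4me1 peaks were found at the start site or a gene end of all 10 members in 5 lists and of 6 of 10 in the SSC WT list, where Bmp4, Bmp6, Bmpr2 and Grem1 had none. That list had 75277 peaks, against 113313 to 148530 in the other 5, and 48.9% of genes had a start-site peak in it, against 64% to 68.2%. Within the loci all members had H3K4me1 peaks in all lists, where 71.9% to 82.1% of all genes had one. The longest locus, Bmpr1b, held 52 to 58 in KO lists and 39 to 48 in WT lists, covering 61554 to 84949 and 44585 to 64749 bases. Gdf5 held 2 to 3 peaks in both genotypes, which covered 7269 to 8667 bases in KO and 6882 to 8668 in WT.

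For H3K27ac, 8 of the 120 pairs of member and list had a peak at the start site or a gene end, 5 of them in KO and 3 in WT. Of the 6 members with a listed start site this was 9.72% of 72 pairs, against 7.9% of the pairs of all such genes with the 12 lists, so the members were near the background. In replicate 1 and then 2, the share of all genes was 11.3% and 1.89% in pBCSP KO and 15% and 5.85% in pBCSP WT. It was 13.3% and 15.1% in BCSP KO and 17.5% and 0.643% in BCSP WT. Bmpr1a had 5 of the 8, in both BCSP KO lists, 1 of the 2 BCSP WT lists and both pBCSP WT lists. Its enrichment was 3.94 to 5.45 times in KO and 4.49 to 5.17 times in WT. The BCSP WT list without a Bmpr1a peak, replicate 2, held only 785 peaks, against 8572 in BCSP KO replicate 2. The others were single lists of BCSP KO, at Bmp2 in replicate 2 (enrichment 3.98) and at Bmp4 and Bmpr2 in replicate 1 (3.55 and 4.04). None of these peaks covered the start site or gene end itself, and that of Bmp4 had a −log10 q of 1.16. Enrichments of separate lists were not compared. No member had one in an SSC list of either genotype, where at most 6.96% of genes did. Bmp6, Bmp7, Gdf5, Nog and Grem1 had none within their locus in any list, where 0.578% to 27.5% of all genes had one by list. The H3K27ac lists held 137 to 8572 peaks and their 2 sets have different layouts.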

How the data were processed

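Gene counts, whole numbers per gene and not normalised, were deposited by the authors for 12 RNA libraries made from poly(A) RNA, per the labels. Peak lists for 24 ChIP libraries hold, per the file headers' layout of MACS2 output, a score, a fold enrichment (ratio), and −log10 p and q per peak, deposited by the authors and used here only to describe or filter peaks within a list. The 12 input libraries were not used here. Per the submitters' processing notes, MACS2 2.2.6, featureCounts 2.0.1, Bowtie2 2.3.5.1, Trim Galore 0.6.6, SAMtools 1.9 and the build GRCm38 were used. The sources used here do not state their roles, settings, annotation or strand, nor the fate of shared reads.

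From the counts, TMM scaling, filterByExpr (17494 of 55487 genes kept) and 1 quasi-likelihood fit with 6 group means were computed in edgeR 4.0.16 (R 4.3.3), with Benjamini-Hochberg adjustment over all kept genes and a threshold of 0.05. CPM use TMM library sizes, and SE values are those implied by the F statistic. The fit was tested on simulated data. DESeq2 1.42.0, limma 3.58.1, other scaling, no filter, replicate blocks, fewer libraries, stricter peaks and wider windows were tried as alternatives. Peaks were matched to a start site 1 kb each way, or to the gene and 10 kb each way, with an overlap of at least 1 base. Members and lists were chosen with earlier results of these data known. All members were named, with called genes of a list or else its 4 of highest mean CPM, and the 3 genes nearest each member, of which 1 is not reported here. Fst, Col1a1, Runx2, Sp7, Prg4 and Tnmd were singled out after their values were seen. Of the gene IDs 55141 matched a symbol, and Hjv of the lists had no match.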

Additional observations from a re-analysis of the deposited data

Results flagged for a closer look

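Bmp7 stood out because both KO libraries lay above the WT mean in BCSP, at 61.2 and 50.2 CPM against a mean of 41 CPM, and both lay below it in SSC and pBCSP, where the WT means were 81.7 and 57.5 CPM. The F test of a difference in KO effect between populations gave an unadjusted p of 0.197 in edgeR. Nog stood out in the same way, its KO pair lying above the WT mean in pBCSP and BCSP and below it in SSC, and an unadjusted p of 0.146. Both had an adjusted p of 1, so neither difference passed the threshold. The SSC mean of Nog in WT rests on replicate 1, at 33.0 CPM, with replicate 2 at 7.34 CPM.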

How the results depend on the processing

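The count of members called on average, 0 in edgeR, was 3 with no filter on low counts (Bmp4, Bmp6 and Grem1; 5.78% of all genes called), 1 in DESeq2 (Bmp6; 9.68%) and 7 with the KO replicate 2 libraries alone (50.2%), and 0 to 4 when 1 library was left out, with 4 (Bmp4, Bmp6, Bmpr2 and Grem1; 32%) only without SSC KO replicate 1. In SSC it was 1 with no filter (1.21%), 6 with KO replicate 2 alone (46.4%) and 0 to 3 with 1 library left out, the 3 again without SSC KO replicate 1 (30.7%). In pBCSP it was 5 with KO replicate 2 alone (14.8%), and in BCSP 1 with no filter (1.04%) and 5 with KO replicate 2 alone (15.7%). Between WT BCSP and WT pBCSP it was 1 in DESeq2 (0.188%). The fits with 1 KO replicate alone also called members, among other genes, between WT BCSP and each other WT population. With KO replicate 2 alone, members were also among the genes called for a KO effect that differs between populations. In the same fits, of the other pathway genes, 0 in edgeR, 8 were called with no filter, 4 in DESeq2, 3 with KO replicate 1 alone (3.63% of all genes), 32 with KO replicate 2 alone and 0 to 13 with 1 library left out, reaching 13 without SSC KO replicate 1 and 1 without SSC KO replicate 2 (1.29%) or BCSP KO replicate 1. The fits with 1 KO replicate alone were chosen after seeing the data, and they and those without a library assume that a lone library varies like the other groups, although KO replicates differed more than WT replicates. The cause of these shifts was not tested.

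Of 52 log2 differences reported, 40 kept their sign in every alternative. With KO replicate 1 alone the sign turned for Bmp2 (0.04 on average, 0.27 in pBCSP and 0.02 in BCSP), for Nog (-0.05 on average), for Grem1 (-0.32 on average, -0.66 in pBCSP and -1.31 in BCSP) and, on average, for Twsg1 (0.26) and Id1 (0.59). With pBCSP and BCSP alone Twsg1 had 0.07 and Id1 0.12, and with counts summed over populations Bmp8a had 0.01. With 1 library left out the ranges that cross 0 were -0.09 to 0.64 for Nog on average and -1.87 to 0.30 in SSC, -2.72 to 0.10 for Bmp4 in SSC, -2.34 to 0.27 for Bmp2 in pBCSP and -1.78 to 0.02 in BCSP, -0.66 to 1.42 for Grem1 in pBCSP and -1.31 to 1.48 in BCSP, and on average -0.53 to 0.06 for Twsg1 and -0.68 to 0.18 for Id1. Grem1 ranged from 0.81 to 1.97 on average and from 1.00 to 4.47 in SSC. Average values with 1 library left out ran from -1.28 to -0.41 for Bmp2, -0.92 to -0.27 for Bmp7, -0.57 to -0.17 for Gdf5, -0.86 to -0.32 for Bmpr2, -0.44 to -0.23 for Bmpr1b and 0.12 to 0.35 for Bmpr1a. The values nearest 0 of Bmp2, Bmp7, Gdf5 and Bmpr1a were those without pBCSP KO replicate 2.

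Same-numbered KO and WT libraries did not deviate together (correlations of deviations 0.01, -0.02 and -0.08 in SSC, pBCSP and BCSP). Such correlations cannot tell whether same-numbered KO and WT samples shared a litter or a day, which the labels do not state. With the replicate block in edgeR or limma 0 members and 0 other pathway genes were called, and Bmp6 had -1.70 (adjusted p = 0.0668) and -1.75 (adjusted p = 0.186). Within a genotype same-numbered libraries did deviate together across populations, which the limma fit models. With counts summed over populations the Bmp6 difference was -1.62 ± 0.55 (adjusted p = 0.591).

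H3K4me3 pairs of member and list with a peak stayed at 60 of 60 in all alternatives. At a −log10 q of at least 10, H3K27ac fell to 0 of 120 at start sites or gene ends (8 before) and 0 in loci (14 before), and H3K4me1 to 0 of 60 in both (56 and 60 before), and loci with 50 kb each way held H3K27ac peaks in 27 pairs.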
